A study of Homo sapiens with 6 samples.

Results

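Mid-width H3K27ac regions that lack H3K4me1 were described in Calu-3, a long-established epithelial cell line that was grown out of a human lung adenocarcinoma and is used as a model of the airway. A region belonged to the class if it was 1500 to 7999 bp wide and had no H3K4me1 region overlapping it or within 2000 bp of either edge. The class held 6363 of the 34638 H3K27ac regions in the list (18.4%). The series has 6 chromatin immunoprecipitation sequencing (ChIP-seq) libraries, all from Calu-3 cells grown with serum, and the labels name no treatment. There were 2 libraries for the transcription factor EHF, 1 for H3K27ac, 1 for H3K4me1 and 2 of input DNA, and the values below come from the 4 interval lists made from the antibody libraries. Every result therefore comes from a single tumour line, and each mark from 1 library.

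H3K27ac is an acetylation of histone H3 found at active promoters and active enhancers. H3K4me1, a single methyl group on another lysine of the same histone, is typical of enhancers and is usually low at the start sites of active genes, where trimethylation takes its place. H3K27ac without H3K4me1 is for that reason often read as promoter-like. EHF (Ets homologous factor) is an ETS-family transcription factor of epithelia, and ETS factors bind DNA around a GGAA core at both promoters and enhancers. The intervals are positions of the human build hg19. Gene starts, gene names and DNA sequence under the regions were not analysed here, so the name promoter-like rests on the marks alone.

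The libraries differed in depth and in how much of it lay in called intervals. Per the file headers, total tags ranged from 8418631 in EHF replicate 2 to 21426939 in H3K27ac. The share of tags in called intervals was 0.155% in EHF replicate 1 and 0.740% in EHF replicate 2, against 5.80% for H3K4me1 and 28.9% for H3K27ac. EHF replicate 1 gave 1537 peaks and EHF replicate 2 gave 5216, so results are given for each replicate separately. Both EHF libraries were called against the same input, and both marks against the other one. Whether the EHF replicates were separate cultures is not given in the labels.

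The rule fixed the following values, which are given as a description without a test. The class covered 16 Mb, or 24.7% of all H3K27ac sequence, and made up 41.6% of the 15279 H3K27ac regions of this width. The other 8916 regions of this width, which had an H3K4me1 region on or within 2000 bp of them, are used below as the comparison regions. Members were narrower, with a median width of 2164 bp (quartiles 1781 and 2860 bp) against 2599 bp (1964 and 3726 bp) in the comparison regions. The nearest H3K4me1 region lay a median of 20758 bp from a member. It was 2001 to 5000 bp away for 1112 members (17.5%) and more than 100000 bp away for 1123 (17.6%).

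Members stood further apart from other acetylated sequence than the comparison regions did. The next H3K27ac region was a median of 11942 bp away for members, against 5582 bp for comparison regions. It lay within 2000 bp for 935 members (14.7%) and for 2526 comparison regions (28.3%).

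The limits of the rule cut through continuous ranges. The narrowest member, chr6:8157652-8159151, was 1500 bp wide with 18.0 H3K27ac tags per kb, and the widest region left out below it, chr1:224240054-224241552, was 1499 bp wide with 38.0. At the other end the widest member, chr17:36603908-36611849, was 7942 bp wide, and the next region, chr11:88265740-88273750, was 8011 bp. The member nearest to H3K4me1, chr6:112162109-112163942, lay 2001 bp from it, and the nearest region left out, chr9:35071089-35073382, lay 1995 bp from it. The first 100 bp above the lower width limit held 581 members, and 269 members had H3K4me1 within 2500 bp.

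H3K27ac tag density is the authors' score of a region, its tags scaled to a library of 10000000, divided by its width in kb. It rose with width inside the class and was somewhat lower in members than in comparison regions. The median was 34.7 tags per kb in members (quartiles 26.3 and 46.7), against 39.6 in comparison regions (30.0 and 53.4). Among regions of 1500 to 2499 bp it was 31.8 in members and 33.7 in comparison regions. Among those of 2500 to 3999 bp it was 38.5 in members and 42.0 in comparison regions, and among those of 4000 to 7999 bp it was 45.8 in members and 50.8 in comparison regions. In 11321 narrower H3K27ac regions that also lacked H3K4me1 the median was 22. Since the H3K27ac calls chose the members and there was 1 library, these differences have no test.

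The first comparison asked how often EHF was found in these regions. An EHF peak of at least 1 replicate lay in 766 of the 6363 members (12%), where 9.82% of all H3K27ac regions held one, and 5597 members had none. A peak of replicate 1 overlapped 192 members (3.02%, exact 95% binomial interval 2.61% to 3.47%), where 2.65% of all H3K27ac regions held one. A peak of replicate 2 overlapped 708 members (11.1%, 10.4% to 11.9%), against 8.99% of all H3K27ac regions. The intervals cover counting error only. These shares of all regions are not matched for width.

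Against H3K27ac regions of the same width range that had H3K4me1, EHF was less frequent in the class. A peak of either replicate lay in 12% of members and 17.1% of comparison regions (two-sided Fisher's exact test, adjusted p = 6.3e-17 over 20 tests). The share with a replicate 1 peak was 3.02% in members and 5.04% in comparison regions (Fisher's exact test, adjusted p = 3.6e-09). The share with a replicate 2 peak was 11.1% in members and 15.4% in comparison regions (Fisher's exact test, adjusted p = 1.2e-13). Sites called in both replicates were found in 126 members (1.98%) and 276 comparison regions (3.10%; Fisher's exact test, adjusted p = 9.8e-05), where 1.71% of all H3K27ac regions held one. Each p is over regions of the same few libraries and says nothing about variation between cultures.

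Both EHF replicates gave a lower share in members in each of 3 width classes, as the plot of shares by width shows. In regions of 2500 to 3999 bp, 3.17% of members and 5.56% of comparison regions held a replicate 1 peak, and 12.4% of members and 16.3% of comparison regions held a replicate 2 peak (adjusted p = 6.1e-04 and 0.0011 by Fisher's exact test). The replicate 2 difference also passed in regions of 1500 to 2499 bp, with 9.57% in members and 11.6% in comparison regions, and in those of 4000 to 7999 bp, with 18.2% in members and 22.7% in comparison regions (adjusted p = 0.0054 and 0.037 by Fisher's exact test). The replicate 1 difference did not pass in these 2 classes. The values were 2.44% in members and 3.22% in comparison regions for the narrow class, and 6.59% in members and 8.27% in comparison regions for the wide one (adjusted p = 0.053 and 0.28 by Fisher's exact test). Sites called in both replicates differed past the threshold in the middle class alone, at 1.85% of members and 3.44% of comparison regions (Fisher's exact test, adjusted p = 0.0046).

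Several of these calls within a width class depended on the settings. In regions of 1500 to 2499 bp the replicate 2 difference was -0.251 points with an H3K4me1 distance of 0 bp, -1.28 with 1000 bp and -1.19 against regions overlapped by H3K4me1 (Fisher's exact tests, unadjusted p = 0.74, 0.062 and 0.11). In those of 4000 to 7999 bp it was -2.22 without chromosomes 4, 13 and X and -2.95 for scores of at least 12 (Fisher's exact tests, unadjusted p = 0.33 and 0.074). In those of 2500 to 3999 bp it was -2.06 with a distance of 0 bp (Fisher's exact test, unadjusted p = 0.054). With scores of at least 12, the differences there were -0.473 for replicate 1 and -0.262 for sites in both replicates (Fisher's exact tests, unadjusted p = 0.22 and 0.44).

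**Figure D1:**
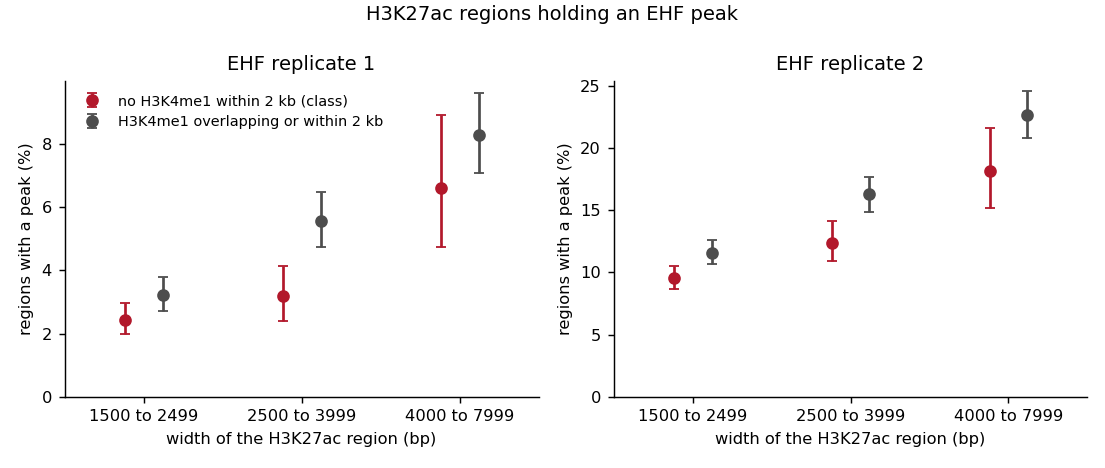
Percentage of H3K27ac regions that hold an EHF peak, by width of the region, for EHF replicate 1 (left) and EHF replicate 2 (right), with the class in red and comparison regions of the same width in grey. Bars are exact 95% binomial intervals; both shares rise with width, and the class lies below the comparison regions in every pair, from 2.44% against 3.22% in the narrow class of replicate 1 to 18.2% against 22.7% in the wide class of replicate 2.

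Per base of region the order was the same. Members held 12 replicate 1 peak centres per Mb (exact Poisson 95% interval 10.4 to 13.8), against 16.8 in comparison regions (15.3 to 18.4). For replicate 2 the values were 46.6 per Mb in members (43.3 to 50.1) and 53.7 in comparison regions (51.0 to 56.5). The narrower H3K27ac regions without H3K4me1 held 9.39 and 48.2 per Mb in replicates 1 and 2. With 24.7% of the H3K27ac sequence, the class held 194 of the 935 replicate 1 peaks in H3K27ac regions (20.7%) and 754 of the 3329 replicate 2 peaks (22.6%).

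Comparison regions are wider than members, and the difference was smaller once widths were matched. With comparison regions reweighted to the width classes of the members, their share was 4.30% for replicate 1 and 13.9% for replicate 2, against 3.02% and 11.1% in members. Matching width alone gave a difference of -1.29 and -2.74 percentage points, where without reweighting it was -2.02 and -4.32 (Cochran-Mantel-Haenszel chi-square tests over 6363 members and 8916 comparison regions, unadjusted p = 3.5e-05 and 3.9e-07). Matching chromosome as well as width gave -0.934 and -1.95 points (Cochran-Mantel-Haenszel chi-square tests, unadjusted p = 0.0086 and 0.001). Matching H3K27ac density as well as width gave -0.929 and -1.67 points (Cochran-Mantel-Haenszel chi-square tests, unadjusted p = 0.0021 and 0.0019).

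Sites called in both replicates lay in 1.98% of members and in 2.61% of comparison regions reweighted by width (Cochran-Mantel-Haenszel chi-square test, unadjusted p = 0.0094). The difference no longer passed with chromosome and width matched, at 1.98% in members and 2.42% in comparison regions, or with density and width matched, at 1.98% in members and 2.36% in comparison regions (Cochran-Mantel-Haenszel chi-square tests, unadjusted p = 0.14 and 0.11). All 3 reweightings were chosen after seeing the data.

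Within the class, EHF peaks were concentrated in the members with most H3K27ac. The members were put in order of tag density and cut into 5 groups of equal number. In the group with the lowest density, 1.02% held a replicate 1 peak and 3.22% a replicate 2 peak. In the group with the highest density, these shares were 5.90% (95% interval 4.67% to 7.34%) and 23.2% (20.9% to 25.6%). Width also rose across the groups, with medians of 1892 bp in the lowest and 2582 bp in the highest. Per Mb, replicate 1 peak centres numbered 4.83 in the lowest group and 20.2 in the highest, and replicate 2 peak centres 15.2 and 85.8.

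The relation held inside each width class. Members with a replicate 2 peak had a median of 46.6 tags per kb and members with no EHF peak had 33.3. In those of 1500 to 2499 bp the medians were 42.6 with a replicate 2 peak and 30.8 with no EHF peak, in those of 2500 to 3999 bp 48.6 and 36.8, and in those of 4000 to 7999 bp 59.4 and 43.7. On each of the 23 chromosomes with members, those with a replicate 2 peak had the higher median density. The relation is across regions of the same libraries and is given without a test.

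**Figure D2:**
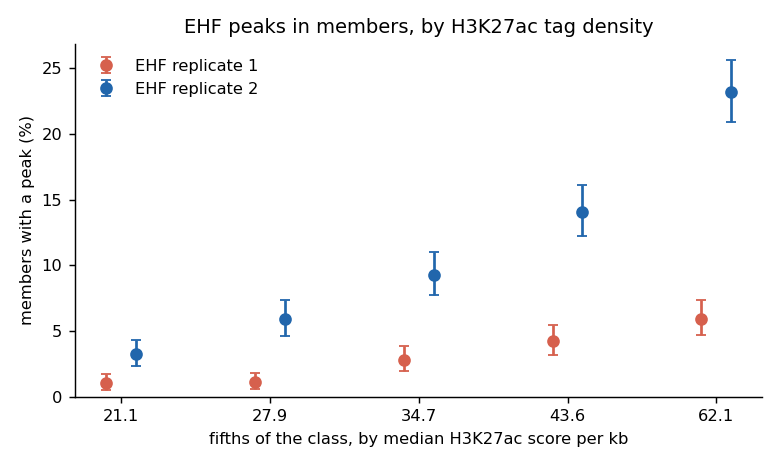
Percentage of members holding an EHF peak in 5 groups of equal number, ordered by H3K27ac tag density and labelled with the median score per kb of each group. Bars are exact 95% binomial intervals; the share is higher in each group than in the one before it for both replicates, up to 5.90% for replicate 1 and 23.2% for replicate 2.

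Members more than 100000 bp from H3K4me1 had the lowest shares with EHF. A replicate 2 peak was held by 14.5% of members with H3K4me1 2001 to 5000 bp away, by 11.4% at over 5000 and up to 20000 bp, by 11.2% at over 20000 and up to 100000 bp and by 7.03% (95% interval 5.61% to 8.69%) beyond that. For replicate 1 the shares in the same order were 4.23%, 2.82%, 3.27% and 1.69% (1.02% to 2.63%), so the steps in between were not in order. H3K27ac density and width moved with distance, at medians of 39.9 tags per kb and 2358 bp in the nearest members and 27.5 tags per kb and 2068 bp in the farthest. Their part in the result was not tested.

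Members that held EHF usually had 1 peak of a replicate. In replicate 1, 190 members had 1 peak and 2 had 2. In replicate 2, 665 had 1 peak, 40 had 2 and 3 had 3, and neighbouring peaks in the same member were a median of 784 bp apart (275 to 3132 bp). Of the members with EHF, 58 had a peak of replicate 1 alone, 574 of replicate 2 alone and 134 of both. The caller keeps peaks of one list at least 300 bp apart in replicate 1 and 250 bp in replicate 2, which sets the lower end of these distances.

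Sites were counted as shared where peaks of the replicates had at least 1 bp in common, which itself keeps their centres close. Between the centres of the 126 paired peaks in members the median distance was 23 bp, and for 66 pairs (52.4%) it was at most 25 bp. Their median score, a tag count for a library scaled to 10000000, was 10 in EHF replicate 1 and 17 in EHF replicate 2. Of the replicate 1 peaks in members, 64.9% were found in replicate 2 (95% interval 57.8% to 71.6%), and in comparison regions 61.0%. Of the replicate 2 peaks in members, 16.6% were found in replicate 1, and in comparison regions 19.1%. Neither difference passed (adjusted p = 0.44 and 0.2 by Fisher's exact test).

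Recurrence followed the score. All 18 replicate 1 peaks in members with a score of 15 or more were found in replicate 2 (lower limit 81.5%), and 31 of the 59 with scores of 6 to 8 (52.5%). Of the replicate 2 peaks in members, 33 of 66 with a score of 24 or more were found in replicate 1 (50%, 37.4% to 62.6%), and 22 of 307 with scores of 6 to 11 (7.17%). The median score of the peaks was 10 in members and 10 in comparison regions for replicate 1, with quartiles of 8 and 12 in both. For replicate 2 it was 12 in members (quartiles 10 and 15) and 12 in comparison regions (quartiles 11 and 17). These scores were not compared by a test.

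The second comparison asked where in the region EHF lay. EHF peaks sat towards the middle of members in both replicates. Of the 193 replicate 1 peak centres in members, 104 (53.9%, 95% interval 46.6% to 61.1%) were in the central part, defined as the middle 33.3% of the length. Of the 748 replicate 2 peak centres, 446 were (59.6%, 56.0% to 63.2%). The outermost 10% of the length at either end, together 20% of it, held 2.59% of the replicate 1 and 3.21% of the replicate 2 peak centres. The median distance from the centre of the region was 342 bp in replicate 1 and 314 bp in replicate 2.

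By distance from the edge, EHF was sparse in the outer part of a member and dense from 500 bp inwards. Replicate 2 had 8.17 peak centres per Mb in the first 250 bp inside the edge, 18.5 in the next 250 bp, 63.5 at 500 to 750 bp and 84.0 (95% interval 73.0 to 96.2) at 750 to 1000 bp. Replicate 1 had 2.20, 5.66, 14.5 and 20.9 per Mb over the same steps. Deeper inside, at 1500 bp or more from the edge, the values were 56.6 for replicate 2 and 14.6 for replicate 1. Comparison regions were also sparse near the edge. Over the same steps they had 8.97, 12.8, 55.0 and 94.4 per Mb in replicate 2, and 67.0 at 1500 bp or more. In replicate 1 they had 3.81, 3.14, 13.5 and 28.9, and 23.8 at 1500 bp or more. Outside the members, in sequence between H3K27ac regions, replicate 2 had 6.29 per Mb within 250 bp of the edge and 1.00 at 2000 to 5000 bp. Per the file headers, the mark regions were stitched from windows of 500 bp, the width over which EHF was sparse at each edge; its part in the result was not tested.

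The wider the member, the less its EHF peaks kept to the middle. In replicate 2 the central part held 70.9% of peak centres in members of 1500 to 2499 bp (95% interval 66.2% to 75.3%), 50.7% in those of 2500 to 3999 bp (44.0% to 57.3%) and 39.3% in those of 4000 to 7999 bp (30.6% to 48.6%). In replicate 1 the shares were 65.0%, 45.3% and 37.5%. In the widest members the interval thus included the 33.3% of length that the central part takes up, in both replicates, and for replicate 1 it also did in members of 2500 to 3999 bp. In members of 4000 to 7999 bp the median distance from the centre was 1047 bp for replicate 2 and 1019 bp for replicate 1.

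Relative to the width of the region, EHF lay further from the middle in members than in comparison regions of the same width class. Pooled over widths the difference did not pass the test. The central part held 53.9% in members and 61.5% in comparison regions for replicate 1, and 59.6% in members and 61.0% in comparison regions for replicate 2 (adjusted p = 0.12 and 0.55 by Fisher's exact test). Comparison regions are wider, however, and wide regions have fewer peaks in the middle. Replicate 1 gave 65.0% in members and 77.0% in comparison regions for the narrow class, 45.3% in members and 60.8% in comparison regions for the middle class, and 37.5% in members and 49.4% in comparison regions for the wide class. Replicate 2 gave 70.9% in members and 75.1% in comparison regions, then 50.7% in members and 59.2% in comparison regions, then 39.3% in members and 47.8% in comparison regions.

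With comparison regions reweighted to the widths of the members, the difference passed in each replicate. It was 53.9% in members and 66.8% in comparison regions for replicate 1, with an odds ratio of 0.563 (95% interval 0.391 to 0.810; Cochran-Mantel-Haenszel chi-square test over 193 and 457 peak centres, unadjusted p = 0.0026). It was 59.6% in members and 65.8% in comparison regions for replicate 2, with an odds ratio of 0.748 (0.618 to 0.905; Cochran-Mantel-Haenszel chi-square test over 748 and 1460 peak centres, unadjusted p = 0.0033). This reweighting was chosen after the shares by width were seen. A peak can share its region with another peak, so peaks are not fully independent. In base pairs and pooled over widths the direction turned. The median distance from the centre was 342 bp in members and 454 bp in comparison regions for replicate 1, and 314 bp in members and 396 bp in comparison regions for replicate 2. Within 500 bp of the centre lay 63.7% of peak centres in members and 53.8% in comparison regions for replicate 1, and 66.6% in members and 58.9% in comparison regions for replicate 2 (Fisher's exact tests, unadjusted p = 0.024 and 4.5e-04). Inside each width class the median distance in bp was larger in members. In replicate 1 the narrow, middle and wide classes gave 216, 507 and 1019 bp in members and 181, 436 and 922 bp in comparison regions. In replicate 2 they gave 198, 481 and 1047 bp in members and 182, 435 and 900 bp in comparison regions.

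**Figure D3:**
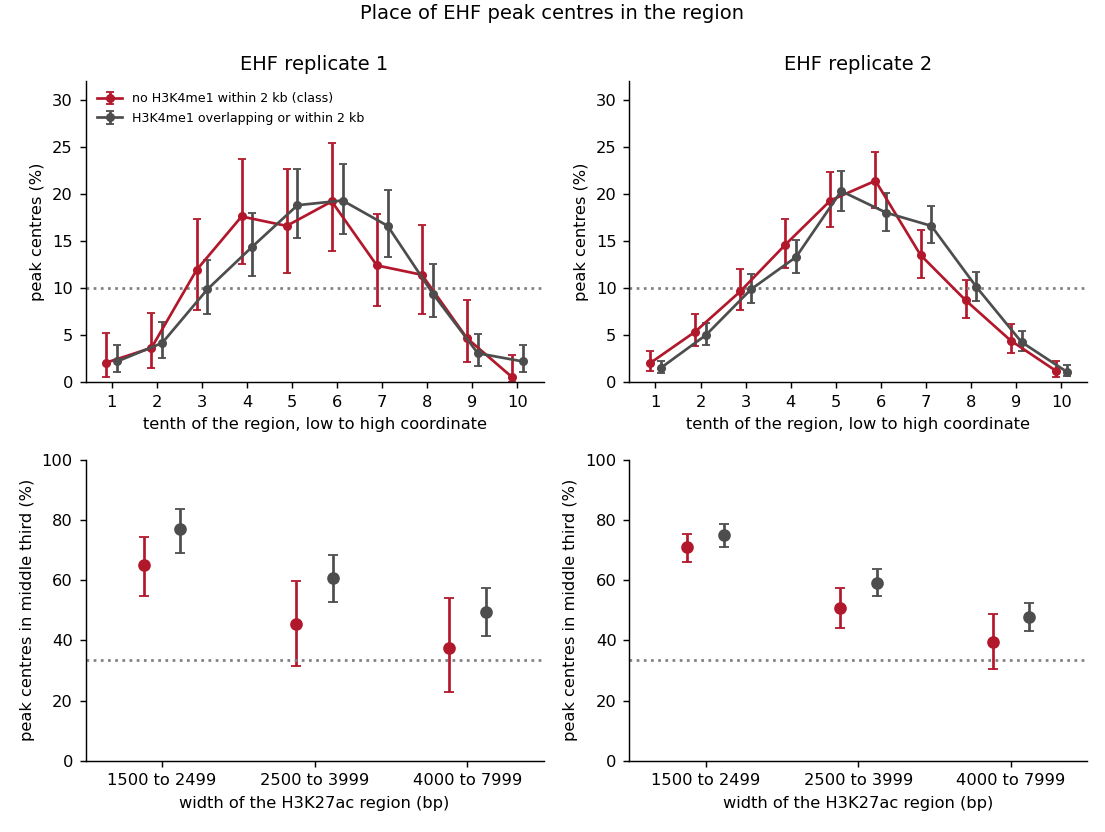
Top: percentage of EHF peak centres in each of 10 equal steps along the H3K27ac region for EHF replicate 1 (left) and EHF replicate 2 (right), with the class in red, comparison regions in grey and a dotted line at the 10% that an even spread would give. Bottom: percentage of peak centres in the central part by width of the region, with a dotted line at 33.3%; bars are exact 95% binomial intervals, and the class lies below the comparison regions in each of the 6 pairs.

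No preference for a side of a member stood out from counting error. Of the peak centres in members, 51.8% lay on the side of lower coordinates in replicate 1 (95% interval 44.5% to 59.0%) and 50.7% in replicate 2 (47.0% to 54.3%). Where an H3K4me1 region lay within 20000 bp, 46.2% of 104 replicate 1 peaks (36.3% to 56.2%) and 45.4% of 414 replicate 2 peaks (40.5% to 50.3%) were on the side that faced it. Where another H3K27ac region lay within 20000 bp, 47.2% and 47.8% faced it. Each of these intervals included 50%. The shares that faced a neighbour were all below 50%, and a small preference is not excluded. The direction of transcription was not used, so a preference relative to a gene would not show here.

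The 12 members with the best mean rank of score among those with a site in both replicates were 1563 to 5519 bp wide. The scores of their sites ranged between 13 and 29 for replicate 1, and between 26 and 43 for replicate 2. The first, chr16:15682931-15686544, was 3614 bp wide with 42.9 tags per kb, and its site at chr16:15684807-15684968 scored 23 in replicate 1 and 43 in replicate 2, 156 bp from the centre of the region. No H3K4me1 region lay within 16473 bp of it. The second, chr15:80728458-80730405, was 1948 bp wide and held the highest replicate 1 score of any member, 29, with 30 in replicate 2. The third, chr5:167750438-167753347, scored 15 and 43 in replicates 1 and 2 and lay 2644 bp from H3K4me1.

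Position varied among these leading members. In 9 of the 12 the site was in the central part of its region. The exceptions were chr7:30026855-30030012, with its site 709 bp from the centre, chr1:157652215-157655505, with its site 1161 bp from the centre, and chr7:1493686-1499204, with its site 1092 bp from the centre. The last of these was the widest of the 12, at 5519 bp. Over all 126 members with a shared site, the lower quartile of tag density was 36.8 per kb, already above the class median of 34.7. Of the 12 members, 10 were above the median tag density of the class. Below it were chr22:24797682-24799541 with 30.6 tags per kb and chr18:55437724-55439286 with 24.3.

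**Figure D4:**
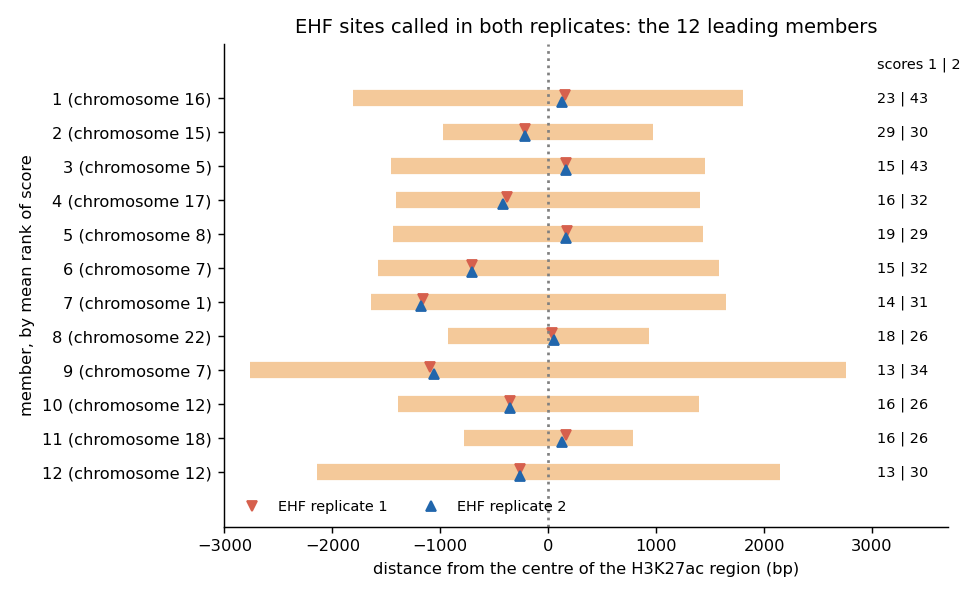
The 12 members with the best mean rank of EHF score in both replicates, drawn to scale around the centre of each H3K27ac region (bar), with the centre of the EHF peak of replicate 1 (red) and replicate 2 (blue) and both scores at the right. Members were chosen for overlapping peaks of both replicates; the replicate 1 peak lies 39 to 1161 bp from the centre of the region, farthest in the member on chromosome 1.

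Some members carried EHF in one library alone. The highest replicate 1 score without a replicate 2 peak was 14, found in chr7:73866311-73870330, chr10:91133389-91134889 and chr11:57565147-57567821. In the member on chromosome 10 the peak was 13 bp from the centre, and in the one on chromosome 7 it was 1426 bp from it. Members with most replicate 2 peaks were chr19:56165166-56168049, which held peaks of scores 10, 15 and 15, chr13:25084024-25087599, with 18, 12 and 8, and chr14:21174476-21176624, with 13, 12 and 10. A replicate 1 peak was called in the first of these alone, with a score of 8.

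The highest replicate 2 scores in members came from one stretch of chromosome 17. Calu-3 is known to carry extra copies of ERBB2, a growth factor receptor gene of that chromosome arm, and copy number itself was not measured here. The stretch, chr17:37500001-39000000, was delimited from replicate 2 scores, as the longest run of 500000 bp bins with a median score 2 or more times the median of the whole list. Its replicate 2 scores are therefore given as a description. It held 15 members and 5 comparison regions. Its members had a median of 363 H3K27ac tags per kb (102 to 2313), against 35.2 in the 260 members elsewhere on the chromosome. Of the 15, 7 held replicate 2 peaks, with scores of 19 to 197, and 0 held a replicate 1 peak. Among all 275 members on chromosome 17, these 15 included, a replicate 2 peak lay in 18.5% and a replicate 1 peak in 1.82%. With so low a replicate 1 share, 0 among 15 members cannot tell the stretch from the rest of the chromosome. The choice of the stretch by replicate 2 scores itself favoured members with replicate 2 peaks. The member with the highest tag density of the class, chr17:37937202-37939903 with 2313 per kb, held no EHF peak in either list, and the next, chr17:37843416-37845258 with 1906 per kb, held a replicate 2 peak of score 197 at 11 bp from its centre. Without chromosome 17 the shares of members and comparison regions with a replicate 2 peak differed by -4.33 percentage points, and with it by -4.32.

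Outside chromosome 17 the members with the highest tag density were far lower. They were chr6:31508720-31510742 with 181 tags per kb, chr16:3069745-3074740 with 165, chr8:31611298-31615063 with 163, chr3:156804323-156808557 with 162 and chr6:31619500-31621506 with 161. Of these 5, 4 held a replicate 2 peak and 1, on chromosome 3, also held a replicate 1 peak, with a score of 12. The region on chromosome 16 held neither.

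Membership of the class varied between chromosomes, and H3K27ac and H3K4me1 calls varied with it. On chromosome 13, 249 of 318 H3K27ac regions of this width lacked H3K4me1 (78.3%, 95% interval 73.4% to 82.7%). The share was 66.8% on chromosome X and 57.7% on chromosome 4. It was lowest on chromosome 18, at 28.0%, and chromosome 5, at 28.1% (25.2% to 31.1%). Per 100 H3K27ac regions the H3K4me1 list held 28.9 regions on chromosome 13 and 37.4 on chromosome X, but 122 on chromosome 18 and 131 on chromosome 5.

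The H3K27ac level of the members followed the same order in part. Their median tag density was 25.6 per kb on chromosome 13 and 29.3 on chromosome X, but 36.1 on chromosome 18 and 41.5 on chromosome 5. Across the 23 chromosomes the share lacking H3K4me1 had a Spearman rho of -0.77 with this density, which describes chromosomes that share the same libraries. On the same terms, the share of members with a replicate 2 peak had a Spearman rho of 0.80 with the density of the members. EHF did not follow the order of the share lacking H3K4me1 throughout. A replicate 2 peak lay in 2.41% of members on chromosome 13, 5.94% on chromosome X, 5.93% on chromosome 18 and 12.5% on chromosome 5, and the highest share was 21% on chromosome 20. A replicate 1 peak lay in 0 of 249 members on chromosome 13, 1.05% on chromosome X, 5.08% on chromosome 18 and 2.34% on chromosome 5. The share of members with a replicate 2 peak was below that of comparison regions on 20 of the 23 chromosomes, and for replicate 1 on 19. Fewer copies of a chromosome and a lower level of the mark per copy cannot be told apart in these lists.

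**Figure D5:**
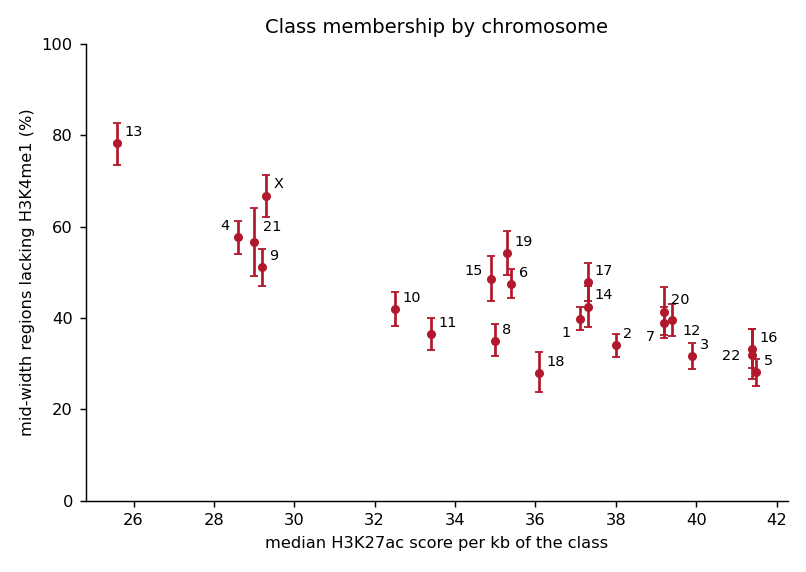
Percentage of H3K27ac regions of 1500 to 7999 bp that lack H3K4me1, for each chromosome (vertical axis, bars are exact 95% binomial intervals), against the median H3K27ac score per kb of the members on it (horizontal axis, starting above 0). Chromosome 13, with 25.6 per kb, has the highest share at 78.3%, and chromosome 5, with 41.5 per kb, is among the lowest at 28.1%.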

How the data were processed

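Intervals and scores are the authors' own. Bowtie 1.0.0, HOMER 1.2 and hg19 are named in the submitters' processing notes. The findPeaks command of HOMER called every antibody library on its own against 1 input, per the file headers, using its factor setting for EHF and its histone setting for both marks, at a false discovery rate of 0.01, 4-fold over input and over the surrounding 10000 bp. The deposited score is the tag count of the interval scaled to 10000000 tags. A region weakly covered by H3K4me1 can thus be missed and enter the class. The input libraries and reads were not used.

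Overlap meant at least 1 bp in common. Intervals were compared with Python 3.11.15, pandas 2.3.3, scipy 1.17.1 and statsmodels 0.14.6. Shares have exact binomial and densities exact Poisson 95% intervals. Two-sided Fisher's exact tests were adjusted by the Benjamini-Hochberg method over 20 tests. Reweighted comparisons used Cochran-Mantel-Haenszel chi-square tests and were added after seeing the data. Code was tested on simulated data. The text names the leading members by EHF score in both lists, in one list and by number of peaks, those with most H3K27ac, and those nearest each limit. The members, comparisons and named regions were chosen with earlier results of these data known.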

Additional observations from a re-analysis of the deposited data

How the results depend on the processing

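The lower share of members with an EHF peak kept its direction under all alternatives run: class minus comparison ranged from -2.46 to -0.625 points for replicate 1, -4.92 to -1.67 for replicate 2, -5.54 to -2.02 for either replicate and -1.44 to -0.380 for sites in both. For either replicate, leaving 1 out only repeats the main value of the other, -4.32 without EHF replicate 1 and -2.02 without EHF replicate 2. Apart from these, the range for either replicate ended at -2.15, reweighted by tag density and width. For sites in both, 2 alternatives lost the threshold, at -0.438 reweighted by chromosome and width and -0.380 by tag density and width (Cochran-Mantel-Haenszel chi-square tests, unadjusted p = 0.14 and 0.11). In the 3 width classes all 108 alternative values were below 0, and 15 lost and 2 gained the threshold at an unadjusted 0.05.

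Pooled over widths, the place of EHF depended on how the middle was defined. The pooled difference, -7.60 points for replicate 1 and -1.33 for replicate 2, turned to 9.90 and 7.67 within 500 bp of the centre (Fisher's exact tests, p = 0.024 and p = 4.5e-04), a measure that favours the narrower members by its construction. It was 1.34 for replicate 1 with the middle 50% of the length as the centre, 4.24 for replicate 1 with scores of at least 12, and 0.255 for replicate 2 with an H3K4me1 distance of 5000 bp, none past the threshold; the cause was not tested. Reweighted by width it became -13.0 and -6.20. With a replicate left out, peaks of either replicate only repeat the other replicate's -7.60 or -1.33. For peaks of either replicate the difference was -2.64, and -7.62 reweighted by width (Cochran-Mantel-Haenszel chi-square test, unadjusted p = 5.2e-05). A site called in both replicates entered this pooled set once per replicate. Its peak centres are therefore not independent, although the test treats them as if they were.

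Scores of at least 12 left 3.24 and 27.6 peaks per Mb in replicates 1 and 2. The median tag density of the class was 31.9 at widths of 1000 to 9999 bp and 37.3 at 2000 to 5999 bp, and 36.1, 35.3 and 33.7 at H3K4me1 distances of 0, 1000 and 5000 bp. The class held 3635 regions at 2000 to 5999 bp, and 5251 to 9499 under the other rules.

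EHF replicate 1, with 0.155% of its tags in peaks, bounds the number of sites called in both lists. No paired analysis was possible because replicate numbers are given to the EHF libraries alone.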
